A study of Homo sapiens with 6 samples.

Results

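Ribosomes are assembled in the nucleolus. RNA polymerase I transcribes the long precursor of the ribosomal RNAs, small nucleolar ribonucleoproteins (snoRNPs) modify it, and a large set of assembly factors cuts and folds it into the small and the large subunit. Growing cancer cells depend on this pathway, and many of its genes are known targets of MYC. Here, 40 genes of the pathway were followed in HGC-27 cells, an undifferentiated human gastric cancer line, exposed to GLUP. They were taken from a fixed list of nucleolar, ribosomal RNA processing and RNA polymerase I genes, found by symbol, and all 40 were present among the 62443 genes of the table. GLUP, a ring-shaped peptide made after the TEAD4-binding stretch of VGLL4, acts on the transcription factor TEAD4, with which the Hippo pathway controls growth genes.

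The 6 libraries comprised 3 from cells labelled as untreated (Con) and 3 from cells treated with GLUP peptide. All came from the same line, cultured with serum, and the methods of the study describe the control as receiving the buffer of the peptide. GLUP was given at 10 μg/ml, for a time written as 12 h in the Results section of the study and as 48 h in its Methods. The methods of the study give a minimum number of biological replicates for its RNA, which is below the 3 of each group here. The labels do not say whether the replicates were separate cultures, so that p-values measure the spread between these libraries, which may be technical.

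Values were FPKM, fragments scaled to transcript length and to the library total. They summed to between 909700 and 965100 per library, and the number of reads behind them is unknown. Con replicate 2 stood apart, with a mean correlation across genes of 0.898 with the other libraries, compared with 0.954 to 0.964 for the rest. For several results that rest on it, values without it are also given, though not for all. Of the markers of cell identity, VIM was at 222 to 387 FPKM, whereas EPCAM and CDH1, which define epithelium, were at or below 0.124 FPKM. PTPRC (leukocytes), VWF (endothelium) and HBB (red cells) were at or below 0.0394 FPKM. The summed level of 5 fibroblast genes was 40.7 to 60.7 FPKM in Con and 31.7 to 49.1 FPKM in GLUP, mostly COL3A1 and DCN, and that of 3 red cell genes, HBA1 and HBA2 with HBB at 0, was 6.95 to 30.0 FPKM and 23.4 to 32.9 FPKM. The groups did not overlap in the sum of 6 epithelial genes, mostly keratins (3.07 to 3.83 FPKM in Con, 5.29 to 6.15 FPKM in GLUP) or in that of 5 mesenchymal genes, mostly VIM (353 to 415 FPKM in Con, 241 to 347 FPKM in GLUP). The part of these genes in the results was not tested.

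To show the regulatory sequence of a complex whose subunits had mean changes of either sign, the 250 bases before the annotated start were read for the 4 core proteins of the box H/ACA snoRNP (RefSeq, GRCh38.p14, each 5′ to 3′ on the strand of the gene). This particle turns chosen uridines of ribosomal RNA into pseudouridine. DKC1 is its enzyme, and NHP2, NOP10 and GAR1 are its partners. Capitals mark matches, on either strand, to CATTCC (the MCAT motif bound by TEAD factors), CACGTG (the E-box bound by MYC with MAX), CCGGAAG (the core of ETS factor sites) or AAGATGG (the core of YY1 sites). The windows lie at chr5:178153886-178154135 (NHP2, minus strand), chr4:109815260-109815509 (GAR1, plus strand), chr15:34343137-34343386 (NOP10, minus strand) and chrX:154762614-154762863 (DKC1, plus strand).
NHP2: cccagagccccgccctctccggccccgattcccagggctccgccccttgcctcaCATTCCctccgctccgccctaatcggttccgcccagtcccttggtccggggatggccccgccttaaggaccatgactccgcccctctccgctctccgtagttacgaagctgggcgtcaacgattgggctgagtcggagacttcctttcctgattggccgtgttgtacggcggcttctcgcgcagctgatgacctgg
GAR1: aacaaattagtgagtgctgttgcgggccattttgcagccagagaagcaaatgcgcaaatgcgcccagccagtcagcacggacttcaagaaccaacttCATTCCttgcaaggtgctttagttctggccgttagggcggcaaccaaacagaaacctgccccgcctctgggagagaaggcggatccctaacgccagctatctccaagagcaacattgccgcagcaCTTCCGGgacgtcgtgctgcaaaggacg
NOP10: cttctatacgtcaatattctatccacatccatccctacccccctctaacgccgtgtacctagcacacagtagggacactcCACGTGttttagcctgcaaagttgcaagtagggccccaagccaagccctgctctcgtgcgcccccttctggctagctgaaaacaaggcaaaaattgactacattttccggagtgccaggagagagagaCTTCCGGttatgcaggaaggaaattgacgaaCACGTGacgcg
DKC1: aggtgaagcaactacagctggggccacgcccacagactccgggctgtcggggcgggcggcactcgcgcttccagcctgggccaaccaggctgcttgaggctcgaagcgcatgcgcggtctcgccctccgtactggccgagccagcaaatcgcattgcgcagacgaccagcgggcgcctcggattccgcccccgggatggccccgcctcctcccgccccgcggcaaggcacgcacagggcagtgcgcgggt

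The MCAT letters began 196 bases before the start of NHP2 and 153 bases before that of GAR1. A second annotated start of GAR1 held no match in its window. NOP10 carried the E-box letters 170 and 11 bases before its start, and DKC1 matched none of the motifs. Windows were found for 33 of the 40 members, and not for BOP1, NOLC1, NOP58, RRP1B, RRP12, RRS1 and TCOF1. The MCAT letters were present in 5 of these 33 (15.2%), namely BYSL, GAR1, NHP2, NPM1 and PPAN, compared with 12.4% of 5408 tested genes with a window and 14.3% of all 27305. The E-box was also present in 5 (15.2%, against 11.2% of tested genes and 7.73% of all), and the YY1 letters in 2 (6.06%, against 5.38% and 4.49%). The ETS letters were found in 13 (39.4%), compared with 22.8% of tested genes and 10.2% of all. They were present as often, in 40%, in 75 other ribosome biogenesis genes.

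The members were first examined as a group. None of the 34 members that could be tested passed an adjusted p of 0.05 between GLUP and Con in limma, as was the case for all genes (0 of 7406, or 0%), and 27 of the 34 had a lower mean in GLUP (79.4%), where 65.5% of all tested genes did. The median log2 fold change of these members was -0.20 and that of all genes tested was -0.23. Fold changes here are differences of group means of log2(FPKM + 1), GLUP minus Con, which understate the change of low genes, and genes averaging under 1 FPKM were not tested. FPKM is a share of the library total, and fewer cells and less RNA per cell cannot be told apart. When the libraries were scaled by the trimmed mean of log ratios, 16 members were lower and 18 higher, with a median of 0.04, and 50.6% of all genes were lower.

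The groups did not overlap for 14 of the 34 members (41.2%), compared with 30.3% of all genes. Of these, 10 were lower in GLUP (background 22.7%) and 4 were higher (background 7.55%). An unadjusted p under 0.05 was reached by 7 of the 34 members and by 21.7% of all genes. There were 5 lower members, NOP58, WDR12, WDR43, RRS1 and POLR1C (17.2% of all genes), and 2 higher members, NHP2 and PES1 (4.46% of all genes). The smallest adjusted p of a member was 0.194 in limma, that of NOP58. Leaving out Con replicate 3 gave 3 members an adjusted p under 0.05 in limma, NOP58, WDR12 and DDX21, all lower in GLUP, when 18.3% of all genes passed. For each of the 14 members an exact permutation test of 3 against 3, two-sided, gave 0.1, the smallest p this design allows. That value follows from the lack of overlap by which they were picked and adds no evidence.

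**Figure D1:**
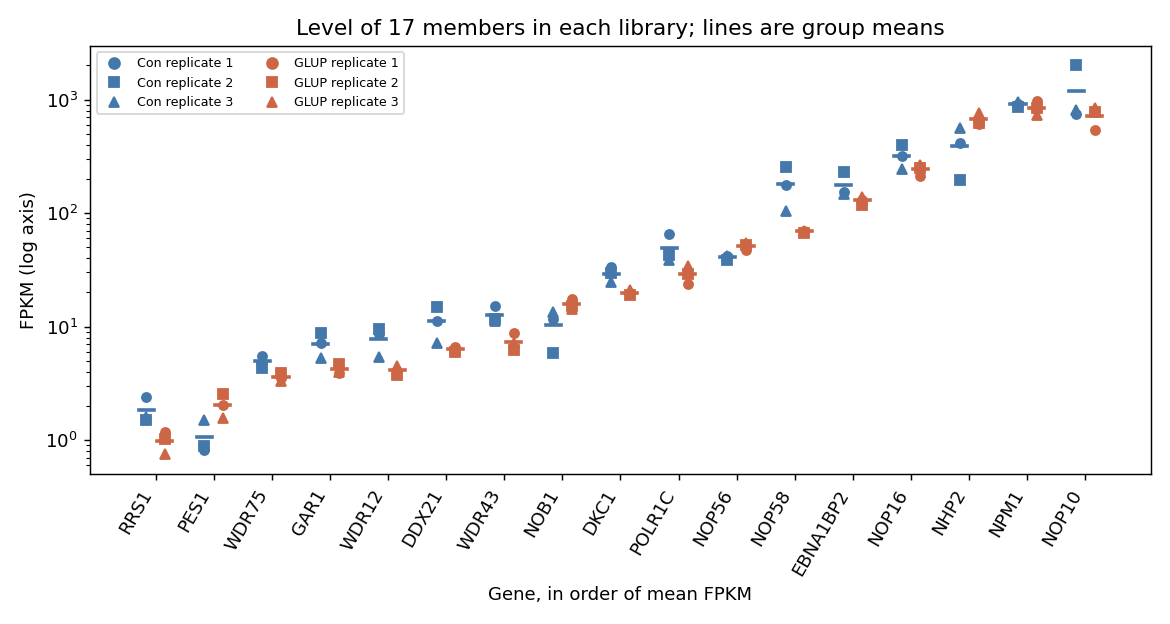
FPKM (log axis) in each of the 6 libraries of 17 members, the 14 whose groups did not overlap and the most abundant of each role group. Symbols give the replicate, blue is Con, orange is GLUP and lines are group means; NOP58 lies at 67.4 to 69.9 FPKM in GLUP and at 104 to 255 FPKM in Con, and NHP2 lies at 613 to 767 FPKM in GLUP and at 196 to 561 FPKM in Con.

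Per library, the median deviation of the 34 members from their own means, relative to that of all genes tested, was 0.09, -0.19 and 0.07 in Con replicates 1 to 3. It was -0.01, 0.02 and -0.04 in the GLUP replicates, within the range of Con but below Con replicates 1 and 3. The low end of that range was Con replicate 2 alone. Without that library the median log2 fold change of the members was -0.28, and that of all genes tested was -0.18. The members varied more among Con libraries (median SD 0.33 on the log2 scale, n = 3) than among GLUP libraries (0.15, n = 3), and the SD was larger in Con for 25 of the 34. The same held for all genes tested, with median SDs of 0.43 and 0.20 and a larger SD in Con for 5976 of 7406. Con replicate 1 held the highest value of 14 members (27.7% of all genes), and Con replicate 2 the lowest value of 12 (28.95% of all genes) and the highest of 8 (37.6% of all genes).

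Levels spanned a wide range. By mean FPKM over the 6 libraries, the median member stood at the 69.6th percentile of tested genes, and 7 of the 34 were above the 90th. The most abundant were NOP10 (mean 955 FPKM), which is the smallest protein of the H/ACA particle, and NPM1 (877 FPKM), the histone and ribosome chaperone of the nucleolus. The 6 members below the minimum for testing were NOP14, UTP15, UTP20, RRP1B, PPAN and POLR1A. Their means ran from 0.327 to 0.839 FPKM, their groups overlapped, and their log2 fold changes in the fit without a filter lay between -0.32 (UTP15) and 0.15 (NOP14).

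Next, the box C/D snoRNP was examined, which adds methyl groups to the ribose of ribosomal RNA. Its core proteins did not share a direction: NOP58 and FBL were lower in GLUP on average and NOP56, the paralogue of NOP58, was higher. NOP58 (ENSG00000055044, protein-coding, chromosome 2, 203130459 to 203168384, plus strand, GRCh37) had 179, 255 and 104 FPKM in Con, in the order of the replicates, and 69.6, 67.4 and 69.9 FPKM in GLUP. All GLUP values were thus below all Con values, and nearly equal to each other. The mean of Con was 179 ± 75.7 FPKM and that of GLUP 69.0 ± 1.38 FPKM (SD, n = 3 each), with a log2 fold change of -1.27 (SE 0.36, adjusted p 0.194 in limma), or -1.04 relative to the median of all genes. This was the largest change of any tested member. Without Con replicate 3 it was -1.62 (adjusted p 0.0289 in limma), and without Con replicate 2, which held the highest value, it was -0.97 (adjusted p 0.131 in limma).

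NOP56 (ENSG00000101361, chromosome 20, 2633239 to 2639039, plus strand) was at 41.9, 38.7 and 41.6 FPKM in Con and at 47.7, 52.1 and 55.1 FPKM in GLUP. The groups did not overlap, and the log2 fold change was 0.33 (SE 0.28, adjusted p 0.447 in limma). FBL, the methyltransferase fibrillarin, was at 48.4, 35.05 and 43.1 FPKM in Con and at 27.1, 41.4 and 25.3 FPKM in GLUP. GLUP replicate 2 lay among the Con values, and its log2 fold change was -0.44 (SE 0.32).

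The proteins of the box H/ACA snoRNP, whose promoters are printed above, did not share a direction in mean either. NHP2 was higher in GLUP and the other core proteins were lower on average. NHP2 (ENSG00000145912, chromosome 5, 177576464 to 177580895, minus strand, GRCh37) was at 413, 196 and 561 FPKM in Con and at 613, 625 and 767 FPKM in GLUP. All GLUP values were above the Con values, with a log2 fold change of 0.90 (SE 0.38, adjusted p 0.216 in limma). Without Con replicate 2, its lowest library, the log2 fold change was 0.46. RMND5B overlaps it on the other strand at a mean of 3.12 FPKM.

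DKC1, the pseudouridine synthase, was at 33.3, 29.5 and 24.9 FPKM in Con and at 19.9, 19.1 and 21.0 FPKM in GLUP, without overlap. Its log2 fold change was -0.52 (SE 0.28, adjusted p 0.281 in limma). GAR1 was at 7.14, 8.83 and 5.26 FPKM in Con and at 3.93, 4.72 and 4.02 FPKM in GLUP, also without overlap, a log2 fold change of -0.61 (SE 0.28, adjusted p 0.238 in limma). Without Con replicate 2, the highest library of GAR1, the change was -0.45. NOP10 was at 753, 2002 and 802 FPKM in Con and at 536, 784 and 851 FPKM in GLUP. Only Con replicate 2 stood above the other libraries, and its log2 fold change of -0.58 became -0.13 without that library. NOLC1, the chaperone that carries these particles to the nucleolus, had a log2 fold change of -0.56, with overlapping groups.

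The pairs of partners were compared within each library, where scaling between libraries does not enter. These 8 ratios were chosen after the values were seen and were not tested. A ratio does not remove the trend with GC content described below. NOP58, WDR12, DKC1 and GAR1 were at 39.6% to 47.1% GC, and NOP56, NHP2 and PES1 at 51.7% to 57.9%. With the trend in GC content and length removed, the log2 fold changes of WDR12 and PES1 were -0.22 and 0.34, in place of -0.76 and 0.56. Those of NOP58 and NOP56 were -0.79 and 0.35, in place of -1.27 and 0.33. The FPKM ratio of NOP58 to NOP56 was 4.26, 6.60 and 2.495 in Con and 1.46, 1.29 and 1.27 in GLUP. On the log2 scale it was lower by 1.62 in GLUP, from 2.04 ± 0.70 (SD, n = 3) to 0.42 ± 0.11 (SD, n = 3). The difference was -1.29 without Con replicate 2. The ratio of GAR1 to NHP2 was 0.0173, 0.0451 and 0.00937 in Con and 0.00641, 0.00754 and 0.00525 in GLUP. On the log2 scale it differed by -1.61, and by -1.01 without Con replicate 2. The ratio of DKC1 to NHP2 differed by -1.44 on the log2 scale, and by -0.99 without Con replicate 2. In both cases Con replicate 3 was the control nearest to GLUP.

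**Figure D2:**
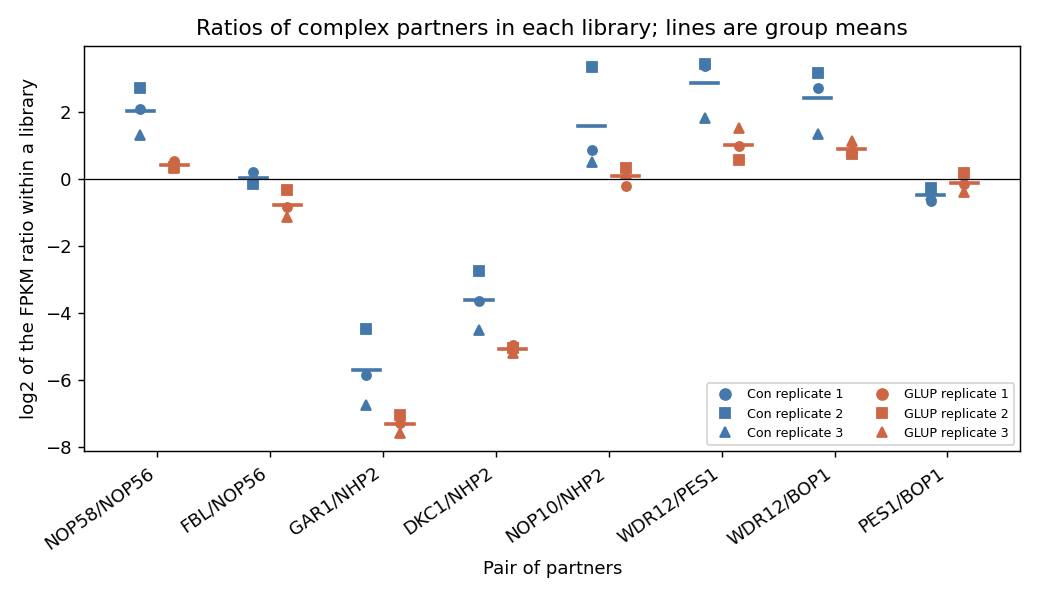
log2 of the FPKM ratio of 8 pairs of partners within each library, with Con in blue, GLUP in orange, symbols for replicates and lines for group means. For NOP58/NOP56 the Con libraries lie at 1.32 to 2.72 and the GLUP libraries at 0.34 to 0.55, whereas the PES1/BOP1 libraries of the groups overlap. The ratios are not corrected for GC content.

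Of the abundant nucleolar proteins, NPM1, NCL and GNL3 had lower means in GLUP as deposited and higher ones with the trimmed mean of log ratios. NPM1, which also has 49 annotated pseudogenes (NPM1P27 among them at a mean of 65.1 FPKM), was at 916, 861 and 944 FPKM in Con and at 968, 836 and 734 FPKM in GLUP. The groups overlapped, and its log2 fold change of -0.11 (SE 0.25) turned to 0.19 with the trimmed mean of log ratios. NCL, nucleolin, averaged 72.5 ± 6.04 FPKM in Con and 70.9 ± 11.2 FPKM in GLUP (SD, n = 3 each). GNL3, the GTPase nucleostemin, overlapped as well (log2 fold change -0.19). DDX21, an RNA helicase, differed from these: it was at 11.2, 14.9 and 7.22 FPKM in Con and at 6.65, 6.04 and 6.30 FPKM in GLUP. Its groups did not overlap, with a log2 fold change of -0.67 (SE 0.31, adjusted p 0.239 in limma), or -0.93 (adjusted p 0.0451 in limma) without Con replicate 3. Without Con replicate 2, its highest library, it was -0.45 (adjusted p 0.349 in limma).

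Among genes of the small subunit, 6 of the 7 tested had a lower mean in GLUP, of which UTP4, RRP9, RRP12 and BYSL turned higher with the trimmed mean of log ratios. WDR43, a subunit of the complex that binds the nascent precursor, was at 15.1, 11.8 and 11.2 FPKM in Con and at 8.78, 6.18 and 7.24 FPKM in GLUP. This separation gave a log2 fold change of -0.70 (SE 0.28, adjusted p 0.204 in limma). WDR75, a subunit of the same complex, was at 5.56, 4.28 and 5.12 FPKM in Con and at 3.50, 3.92 and 3.32 FPKM in GLUP. Its log2 fold change of -0.38 (SE 0.25) became 0.18 once the trend in base composition and length was removed. NOB1, the nuclease that makes the last cut of the small ribosomal RNA, went the other way. It was at 11.6, 5.87 and 13.4 FPKM in Con and at 17.4, 15.3 and 14.3 FPKM in GLUP, with a log2 fold change of 0.63 (SE 0.34, adjusted p 0.279 in limma) that was 0.31 without Con replicate 2. UTP4, RRP9, RRP12 and BYSL overlapped between the groups, with log2 fold changes from -0.17 to -0.02. CHTF8 overlaps UTP4 on the other strand at a mean of 7.68 FPKM, where UTP4 averaged 9.51 FPKM.

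Of the 9 tested genes of the large subunit, 6 were lower and 3 higher in mean, and GNL2 turned from lower to higher with the trimmed mean of log ratios. The PeBoW complex, built of PES1, BOP1 and WDR12 and needed to form the large ribosomal RNAs, was split. WDR12 (ENSG00000138442, chromosome 2, 203738984 to 203879521, minus strand, GRCh37) was at 8.56, 9.58 and 5.38 FPKM in Con and at 4.03, 3.78 and 4.52 FPKM in GLUP. The groups did not overlap, and its log2 fold change was -0.76 (SE 0.29, adjusted p 0.199 in limma), or -0.98 (adjusted p 0.0355 in limma) without Con replicate 3. With Con replicate 2, its highest control, left out instead, it was -0.61 (adjusted p 0.245 in limma). NBEAL1 overlaps it on the other strand at a mean of 9.22 FPKM.

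PES1 was at 0.821, 0.890 and 1.51 FPKM in Con and at 2.04, 2.55 and 1.56 FPKM in GLUP. The highest Con value, replicate 3, lay just under the lowest GLUP value, and the log2 fold change was 0.56 (SE 0.24, adjusted p 0.220 in limma). BOP1 was at 1.29, 1.07 and 2.11 FPKM in Con and at 2.25, 2.25 and 2.04 FPKM in GLUP, where GLUP replicate 3 fell below Con replicate 3. Its log2 fold change was 0.37 (SE 0.24). The ratio of WDR12 to PES1 was 10.4, 10.8 and 3.56 in Con and 1.98, 1.49 and 2.91 in GLUP, so that the groups did not overlap.

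RRS1, which helps to load the 5S ribosomal RNA, was at 2.41, 1.51 and 1.599 FPKM in Con and at 1.17, 1.01 and 0.749 FPKM in GLUP. The separated groups gave a log2 fold change of -0.51 (SE 0.23, adjusted p 0.229 in limma). EBNA1BP2 was at 152, 229.7 and 148 FPKM in Con and at 131, 118 and 139 FPKM in GLUP. Its groups did not overlap, and its log2 fold change of -0.42 (SE 0.30) was -0.21 without Con replicate 2. NOP16, the most abundant gene of this role, was at 318, 394 and 247 FPKM in Con and at 211, 249 and 267 FPKM in GLUP. The groups overlapped, and HIGD2A overlaps the gene on the other strand at a mean of 74.8 FPKM. NIP7 and GNL2 were lower in mean and NOP2, an RNA methyltransferase, was higher (log2 fold changes -0.52, -0.16 and 0.48), all with overlapping groups.

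Of the 6 tested genes of RNA polymerase I, 5 had a lower mean in GLUP, of which POLR1B, RRN3 and TCOF1 turned higher with the trimmed mean of log ratios. POLR1C, a subunit shared with RNA polymerase III, was at 65.4, 42.5 and 38.9 FPKM in Con and at 23.7, 28.8 and 34.04 FPKM in GLUP. This was the only gene of the role without overlap, with a log2 fold change of -0.72 (SE 0.32, adjusted p 0.229 in limma), and YIPF3 overlaps it on the other strand at a mean of 7.43 FPKM. POLR1D, the other shared subunit, had a log2 fold change of -0.29, and TCOF1, the treacle protein, one of -0.21. POLR1B (the second largest subunit), RRN3 (the initiation factor TIF-IA) and UBTF (the factor that opens ribosomal DNA) lay at -0.01, -0.09 and 0.28. The groups of these 5 genes overlapped. RRN3, at a mean of 1.44 FPKM, also has a pseudogene, RRN3P1, at a mean of 3.51 FPKM.

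**Figure D3:**
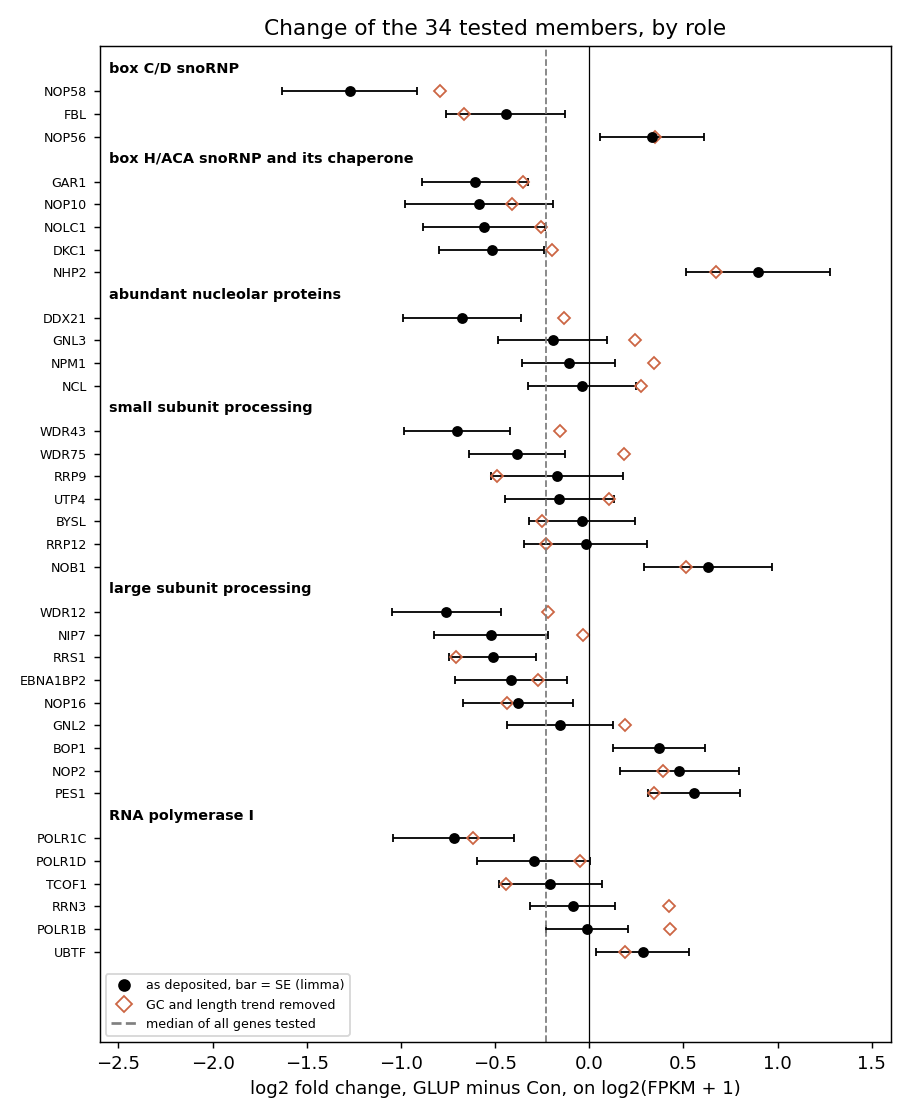
log2 fold change between GLUP and Con of the 34 tested members, by role. Black points are the values as deposited with bars of 1 SE, open diamonds are the values after removal of the trend in GC content and length, and the dashed line is the median of all genes tested at -0.23; NOP58 lies farthest to the left at -1.27 and NHP2 farthest to the right at 0.90.

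The changes of the members were examined against base composition. GC content of the canonical transcript was known for 33 tested members. Over these its Spearman correlation with the log2 fold change was 0.48, and over 7279 genes it was 0.56. The points share the same libraries, and this is given as a description. Genes were then cut into 3 equal bins of GC content. In the lowest, under 43.3%, all 10 members had a lower mean in GLUP (89.8% of all genes there), and their median log2 fold change was -0.45 against -0.52. In the middle bin, 10 of 11 members were lower (72.1% of all genes there), with a median of -0.42 against -0.27. In the highest bin, above 51.9%, 7 of 12 were lower (34.7% of all genes there), with a median of -0.03 against 0.20.

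NOP58 and WDR12 were at 40.9% and 39.6% GC, and NOP56, NHP2 and PES1 at 51.7%, 57.1% and 57.9%. FBL, RRS1, NOP16, TCOF1 and RRP9 had lower means in GLUP at 53.4% to 60.7% GC, so that members of either direction were found at high GC content. Of these, only RRS1 had groups that did not overlap, and TCOF1 and RRP9 turned higher with the trimmed mean of log ratios. With the trend in GC content and length removed from each library, 19 of 33 members were lower (57.6%, against 49.8% of all genes) and their median was -0.13 against 0.0022. The log2 fold change of NOP58 was then -0.79 and that of NHP2 0.67, with adjusted p-values of 0.212 and 0.269 in limma, and WDR43, WDR12 and DDX21 came to -0.16, -0.22 and -0.13. POLR1C came to -0.62 and RRS1, with a GC content of 56.3%, to -0.71, farther from 0 than before. FBL, NOP16, TCOF1 and RRP9 came to -0.66, -0.44, -0.44 and -0.49, in place of -0.44, -0.38, -0.21 and -0.17. How far base composition accounts for the single differences was not tested.

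**Figure D4:**
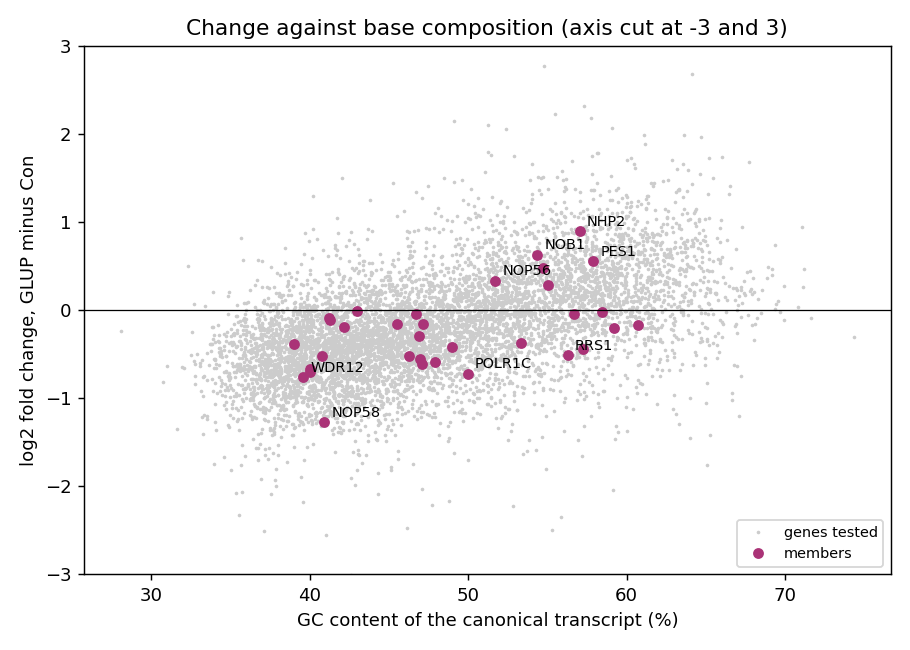
log2 fold change between GLUP and Con against the GC content (%) of the canonical transcript, for all tested genes (grey) and 33 members (purple). The 10 members under 43.3% GC all lie below 0, and those above 0 lie at 51.7% or higher.

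Finally, 86 other genes of ribosome biogenesis were examined, of which 69 could be tested. None passed an adjusted p of 0.05 in limma. As deposited, 51 were lower and 18 higher in mean (73.9% lower, against 65.5% of all genes tested). Their median log2 fold change was -0.37 against -0.23. With the trimmed mean of log ratios, 40 were lower (58.0%, against 50.6% of all genes). At an unadjusted p under 0.05 there were 15 lower genes (17.2% of all genes) and 2 higher genes (4.46% of all genes). For 23 genes (33.3%, against 30.3% of all genes) the groups did not overlap. The smallest p-values among the lower genes belonged to small subunit factors. UTP18 was at 17.2, 8.13 and 4.38 FPKM in Con and at 2.15, 2.08 and 2.27 FPKM in GLUP, a log2 fold change of -1.61 (SE 0.41). DCAF13 averaged 38.1 ± 16.4 FPKM in Con and 13.2 ± 0.221 FPKM in GLUP (SD, n = 3 each), a log2 fold change of -1.36 (SE 0.38), and UTP11 202 ± 63.4 FPKM and 86.8 ± 13.8 FPKM (SD, n = 3 each), one of -1.17 (SE 0.33). For these 3 genes all GLUP values were below the Con values, and Con replicate 3 was the lowest control. Without Con replicate 2 the log2 fold changes of UTP18, DCAF13 and UTP11 were -1.64, -1.10 and -0.96.

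The 2 higher genes were DDX49, a helicase, at 7.70, 7.07 and 8.67 FPKM in Con and 14.3, 13.5 and 12.1 FPKM in GLUP, and NOC4L, whose groups overlapped. Their log2 fold changes were 0.70 (SE 0.27) and 0.72 (SE 0.27). By role, the median log2 fold changes of the other genes were -0.42 for the small subunit, -0.36 for the large subunit, -0.37 for RNA polymerase I and -0.08 for snoRNP assembly. With the trend in GC content and length removed, 36 of the 69 were lower (52.2%, against 49.8% of all genes) and the median was -0.02. Without Con replicate 3, 16 of the 69 had an adjusted p under 0.05 in limma, 15 of them lower, when 18.3% of all genes passed.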

How the data were processed

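RNA of 3 Con and 3 GLUP samples of HGC-27 cells was sequenced, and groups were taken from the sample titles. The authors deposited FPKM per gene in a single table. The submitters' processing notes name HISAT2, Cufflinks and RSEM, with no roles or versions, and GRCh38.p10, whereas 84.9% of the gene identifiers carry the suffix of an annotation lifted to GRCh37. Strand setting is not given in the sources used here, so overlapping genes are named as a limit. FPKM carries no read counts and is relative to the library total. Low values piled up on a common step in 7.57% to 11.8% of cases only, so reads were not recovered.

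Identifiers were joined to symbols (62162 of 62443 named) and to coordinates, length and GC content of GENCODE 44 on GRCh37. Promoters came from RefSeq on GRCh38.p14. The 7406 genes averaging 1 FPKM or more were fitted as log2(FPKM + 1) in R 4.3.3 by limma 3.58.1 (lmFit, then eBayes with trend). Tests were two-sided, had no covariates, and were adjusted by Benjamini-Hochberg over the whole fit. The fit was tested on simulated data. Ratios and counts were computed with pandas 2.3.3 and figures drawn with matplotlib 3.10.9.

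Values per library are given for members whose groups did not overlap and for the most abundant of each role, and others also where a partner is described. Of the other pathway genes, up to 3 per direction with the smallest p were named. Members, lists, motifs and settings were chosen with earlier results of these data known. Alternatives were a pseudocount of 0.1, no filter, a minimum of 5 FPKM, other scalings (trimmed mean of log ratios, 30% by ratio and 5% by level; median; quantile), eBayes without trend and robust, the replicate block, removal of a loess trend (span 0.5), and leaving out each sample. The sum of the leukocyte marker list is not reported here.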

Additional observations from a re-analysis of the deposited data

How the results depend on the processing

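The count of members with an adjusted p under 0.05 in limma was 0 in the reported fit and under all alternatives except without Con replicate 3, so that it ran from 0 to 3 when each of the 6 libraries was left out in turn. Over all genes the count of 0 became 1 with a minimum of 5 FPKM and 1 with eBayes without trend (CLPTM1L each time). Removing the trend in GC and length gave 2 (CLPTM1L and HSPB1). With a library left out it ran from 0 to 1372, with 3 without Con replicate 2 (CLPTM1L, HSPB1 and ENSG00000261553) and the high value without Con replicate 3. Members with a lower mean numbered 27 in the reported fit. With the trimmed mean of log ratios, centring on the median and quantile normalization they numbered 16, 16 and 17. Of all genes, 50.6%, 47.5% and 53.0% were lower under these scalings, in place of 65.5%. When a library was left out, 23 to 26 members were lower, and 60.6% to 66.8% of all genes. The median log2 fold change of the members was 0.042, 0.063 and 0.0077 under the same scalings. It was -0.42 with a minimum of 5 FPKM, where 23 members were tested, and -0.28 to -0.10 when a library was left out. Other pathway genes with a lower mean numbered 24 of 36 with a minimum of 5 FPKM (62.8% of all genes) and 47 to 56 when a library was left out. The groups did not overlap for 14 to 21 members when a library was left out, and for 35.6% to 56.9% of all genes.

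Of 17 members, the 14 whose groups did not overlap and the most abundant of each role, NPM1 changed sign, to 0.19 with the trimmed mean of log ratios, 0.16 with centring on the median and 0.35 on removal of the GC and length trend. WDR75 changed sign to 0.18 on that removal. The labels do not say whether libraries of the same number share a culture or batch, and their deviations from the group means correlated at 0.13, -0.01 and -0.17. With the replicate block, 1 gene of all passed (ENSG00000261553) and no member, and the block joined to removal of the trend again gave 1 (ENSG00000261553). With the block, 2 members had an unadjusted p under 0.05 in limma, in place of 7. Of all 7406 genes tested, 1513 did with the block, in place of 1606. NPM1 and WDR75 were at 0.35 and 0.18 with the trend removed and the block. The cause of these differences was not tested. The depth in reads is unknown, so counting error cannot be set beside these values.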
